A study of Mus musculus with 6 samples.

Results

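Cytokine receptors and the SOCS proteins that restrain them were examined in DP thymocytes, the immature T cells that carry both CD4 and CD8. The group comprised 7 receptor chains (*Il7r*, *Il2rb*, *Il2rg*, *Il4ra*, *Ifngr1*, *Il6ra* and *Il6st*) and 3 feedback inhibitors (*Socs1*, *Socs3* and *Cish*). They were chosen by name as receptors that thymocytes regain on selection, together with their inhibitors, and all 10 were found among the 23183 gene symbols of the files.

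Cytokine receptors of this class have no kinase activity of their own and signal through JAK kinases, which phosphorylate STAT transcription factors. STAT factors induce SOCS genes, and the SOCS proteins bind the receptor or the kinase and close the loop. DP thymocytes are known for low IL-7 receptor and high SOCS1, and thymocytes regain IL-7 receptor once they have been positively selected into single positive cells.

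The study compared WT and NSrp70-cKO mice to learn how loss of the splicing regulator NSrp70, encoded by *Nsrp1*, affects DP thymocytes. Both groups were C57BL/6 mice of 6 weeks and both carried floxed *Nsrp1* alleles. WT libraries were labelled NSRP1f/f and cKO libraries NSRP1f/fCD4Cre, with 3 libraries each. The Cre transgene is driven by *Cd4* regulatory elements, which become active late in the double negative stage, and WT mice carried no Cre. Nothing in the labels says that the libraries came from separate animals, so the p-values measure only the spread between these libraries.

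*Nsrp1* itself had an FPKM (fragments per kilobase of transcript, scaled by the authors to the mapped fragments) of 20.2, 20.7 and 21.1 in WT 1 to 3 and of 17.7, 15.8 and 15.0 in cKO 1 to 3. All cKO libraries were below all WT libraries, with a log2 fold change of -0.34 ± 0.077 (SE; limma adjusted p = 0.00675). The estimated depth was 20.6 M fragments in each WT library and between 13.0 and 20.5 M in cKO. WT libraries differed from one another by little more than counting noise (chi-square per gene between 1.47 and 1.57, where noise alone gives about unity), whereas cKO libraries differed by 32.0 to 69.5. Tests were therefore also run with WT counted as 1 sample. *Xist* averaged 70.9 in WT and 4.75 in cKO, and the Y-linked *Ddx3y* was listed at 0 in WT and at 26.2 to 35.0 in cKO. Sex and genotype cannot be told apart in these libraries. All 12 DP markers were detected, among them *Cd4*, *Cd8a* and *Rag1*, and their summed FPKM was 5771 to 5856 in WT and 7778 to 9969 in cKO.

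Of the 10 genes, 8 reached an FPKM of 1 in at least 3 libraries and were tested with limma on log2(FPKM + 1), a scale that understates the change of low genes. *Il7r*, *Il2rb*, *Socs1* and *Socs3* fell in cKO, and *Il2rg* and *Ifngr1* rose after median-of-ratios scaling, with *Il2rg* turning below 0 under quantile normalization and the same FPKM total. *Il4ra* and *Il6st* did not pass the test, and *Il6ra* and *Cish* lay below the filter. The 4 of 8 that fell stand beside 29.8% of all 10326 tested genes that fell, and without *Il2rb*, which passed the filter through its WT values alone, they were 3 of 7. The 2 of 8 that rose stand beside 35.8% that rose. In 4 of 8 all cKO libraries were below all WT libraries, against 33.3% of tested genes, and in 3 of 8 all were above, against 39.2%, with *Il4ra* among them by a margin beyond the digits printed here. With WT counted as 1 sample, 3 of the 8 fell (2 of 7 without *Il2rb*), against 8.73% of tested genes, and 0 rose, against 7.21%, at the adjusted p of limma under 0.05. With every library counted, calls were so common across the genome that the counts alone set the group little apart. Calls with WT counted as 1 sample were fewer, and this does not cover them. The 10 genes were chosen with earlier results of these data known, so none of these counts is independent support for the group. The individual values follow. Because whole populations were sequenced, fewer cells expressing a gene and less RNA per cell cannot be told apart.

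**Figure D1:**
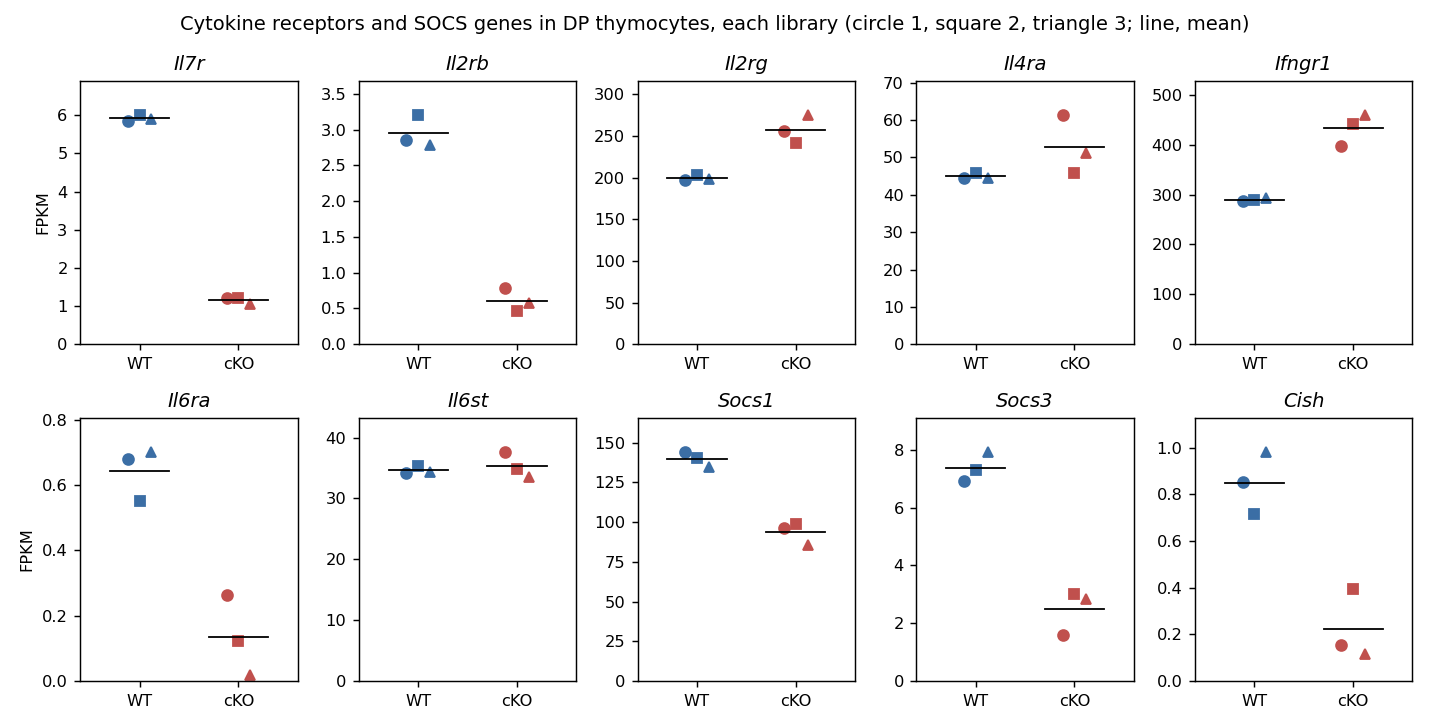
FPKM of the 10 genes (vertical axes, each from 0) in the 3 WT and 3 cKO libraries, with symbols for library number and a line at the mean. Il7r falls from a mean of 5.92 to 1.17 with tight groups, Ifngr1 rises from 290 to 433, and Il6st overlaps between genotypes.

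The promoter stretches that hold a motif of the STAT or IRF families are shown for 4 of the genes, since these families act downstream of the receptors. Windows from 250 bases before to 50 after the RefSeq start (GRCm38.p6) were available for 9 of the 10 genes, with none for *Il2rb*. The STAT motif TTCNNNGAA, a palindrome, occurred in the windows of *Il7r*, *Socs3* and *Cish*, and in 8.30% of all 32851 windows. The IRF motif, a pair of GAAA half-sites spaced by 2 bases and searched on both strands, occurred in the window of *Socs1* and in 3.44% of all windows. Capitals mark the motif, and each stretch reads 5′ to 3′ on the strand of its gene.
Il7r: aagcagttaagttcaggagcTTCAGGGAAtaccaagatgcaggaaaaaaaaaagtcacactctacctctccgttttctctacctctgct
Socs3: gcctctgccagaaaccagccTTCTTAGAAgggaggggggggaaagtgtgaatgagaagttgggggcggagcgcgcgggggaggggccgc
Cish: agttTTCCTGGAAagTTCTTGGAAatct
Socs1: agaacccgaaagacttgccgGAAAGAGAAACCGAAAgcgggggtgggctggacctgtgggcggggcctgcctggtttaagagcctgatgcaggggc
The *Il7r* stretch lies at chr15:9529950-9530038 (minus strand), upstream of the coding transcripts and in an intron of a noncoding one. That of *Socs3* lies at chr11:117969452-117969540 (minus strand), likewise in an intron of a noncoding transcript. The *Cish* site, with the motif present in 2 copies, lies at chr9:107296655-107296682 (plus strand) in the first exon of a coding transcript. The *Socs1* stretch, at chr16:10785544-10785639 (minus strand), overlaps no annotated feature, and its 2 matches overlap each other by 4 bases. These matches describe the sequence and are not evidence of binding.

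*Il7r*, on chromosome 15 (9505788 to 9530176, mm10), encodes the IL-7 receptor alpha chain, which pairs with the common gamma chain. Its FPKM was 5.86, 6.00 and 5.90 in WT and 1.22, 1.22 and 1.06 in cKO. The groups were far apart and each was tight, and the cKO mean was 5.07-fold lower. The log2 fold change of *Il7r* was -1.67 ± 0.075 (SE; limma adjusted p = 4.82e-05). It stayed below 0 and past the threshold under all 17 alternatives, between -2.25 and -1.52, and its highest adjusted p was 0.0223, with WT counted as 1 sample.

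*Il2rb*, also on chromosome 15 (78479256 to 78495271), encodes the beta chain shared by the IL-2 and IL-15 receptors. Its FPKM was 2.86, 3.20 and 2.79 in WT and 0.786, 0.461 and 0.571 in cKO. Every cKO library was well below every WT library, and the mean was 4.87-fold lower, with a log2 fold change of -1.30 ± 0.105 (SE; limma adjusted p = 0.000158). *Il2rb* passed the filter only through the WT libraries, so its test was made on a gene selected for high WT values. With no filter the adjusted p was 0.000546. Leaving out any WT library removed it from the test. With WT counted as 1 sample the adjusted p from limma was 0.0294.

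The other chains of these receptors were less uniform. *Il2ra*, the IL-2 receptor alpha chain, also fell, with an FPKM of 4.96, 4.55 and 4.54 in WT and 3.88, 2.75 and 2.96 in cKO (log2 fold change -0.45, adjusted p = 0.0114 from limma). The call on *Il2ra* was lost by quantile normalization (adjusted p = 0.0603) and with WT counted as 1 sample (adjusted p = 0.167). *Il15ra*, the IL-15 receptor alpha chain, had an FPKM of 1.43 to 2.20 in WT and 0.896 to 1.45 in cKO, with overlapping groups (log2 fold change -0.38, adjusted p = 0.0594). *Crlf2*, which pairs with *Il7r* in the TSLP receptor, had an FPKM of 10.9 to 13.6 in WT and 9.53 to 11.6 in cKO, again with overlap (-0.21, adjusted p = 0.125).

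*Il2rg*, on the X chromosome (101264378 to 101268255), encodes the common gamma chain. Its FPKM was 198, 203 and 199 in WT and 256, 241 and 275 in cKO. All cKO libraries were higher, by 1.29-fold in the mean, and the log2 fold change was 0.36 ± 0.079 (SE; limma adjusted p = 0.00606). The direction of *Il2rg* depended on the scaling: it was -0.11 by quantile normalization (adjusted p = 0.0916) and -0.20 when all libraries were scaled to the same FPKM total (adjusted p = 0.0286). That total-based scaling moved the median log2 fold change of all genes from 0.039 to -0.45, and *Il2rg* lay above the median gene there, whereas by quantile normalization it lay below the median gene, at 0.029. The call was also lost with a correction for GC content and length (0.063, adjusted p = 0.422) and with WT counted as 1 sample (adjusted p = 0.244).

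The balance of the chains differed between the genotypes. The FPKM of *Il2rg* was 33.7 to 33.9 times that of *Il7r* in WT libraries and 198 to 260 times in cKO libraries. For *Il2rg* over *Il2rb* the ratio was 63.5 to 71.4 in WT and 326 to 524 in cKO. Neither ratio overlapped between the groups, and dividing a library by any factor leaves both unchanged.

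*Il4ra*, on chromosome 7 (125552120 to 125579474), encodes the IL-4 receptor alpha chain, which is also used by IL-13. Its FPKM was 44.5, 45.9 and 44.4 in WT and 61.3, 45.9 and 51.1 in cKO. Only cKO 1 and 3 stood apart, while cKO 2 was level with WT 2. The log2 fold change of 0.22 (standard error 0.109) did not pass the test (adjusted p = 0.118 from limma). Without cKO 2 it was 0.32 (adjusted p = 0.011), and with GC content and length corrected it was 0.75 (adjusted p = 0.00117). Scaling to the same FPKM total turned it to -0.33 (adjusted p = 0.0202). *Il13ra1*, its partner in the IL-13 receptor, was at most 0.0812 in any library.

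**Figure D2:**
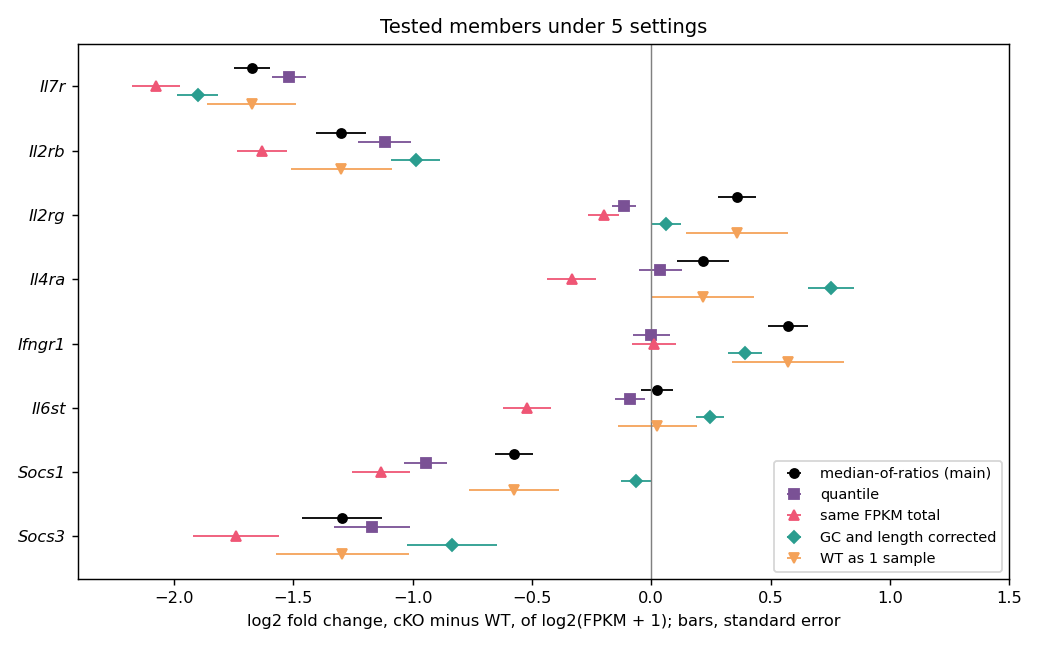
Log2 fold change (cKO minus WT) of log2(FPKM + 1), with standard errors, for the 8 tested genes under 5 settings. Il7r, Il2rb and Socs3 stay below 0 under all 5, whereas Il2rg spans -0.20 to 0.36 and Ifngr1 lies at 0.57 with median-of-ratios scaling and near 0 under 2 scalings.

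*Ifngr1*, on chromosome 10 (19591949 to 19610229), encodes the ligand-binding chain of the IFN-gamma receptor. Its FPKM was 288, 289 and 293 in WT and 398, 441 and 459 in cKO. All cKO libraries were higher, with a mean 1.49-fold that of WT and a log2 fold change of 0.57 ± 0.085 (SE; limma adjusted p = 0.00112). It fell to 0.00024 by quantile normalization (adjusted p = 0.998) and to 0.012 when scaled to the same FPKM total (adjusted p = 0.913). With WT counted as 1 sample the adjusted p was 0.119.

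*Ifngr2*, the signalling chain of the same receptor, went the other way. Its FPKM was 28.1, 26.6 and 26.9 in WT and 16.6, 19.8 and 15.0 in cKO, without overlap. The log2 fold change was -0.65 ± 0.098 (SE; limma adjusted p = 0.00127). The call on *Ifngr2* held under quantile normalization, the same FPKM total and the GC and length correction, but not with WT counted as 1 sample (adjusted p = 0.0624). *Ifngr1* was 10.2 to 10.9 times *Ifngr2* in WT libraries and 22.3 to 30.5 times in cKO libraries, a ratio that dividing a library by any factor leaves unchanged.

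The IL-6 receptor consists of an alpha chain, *Il6ra* (chromosome 3, 89864059 to 89913196), and the shared signal transducer gp130, *Il6st* (chromosome 13, 112464070 to 112510086). *Il6ra* had an FPKM of 0.680, 0.550 and 0.700 in WT and 0.263, 0.121 and 0.0181 in cKO. The groups did not overlap, and an exact two-sided permutation test gave p = 0.1 for *Il6ra*, the smallest p that 3 against 3 libraries allow. The estimated number of fragments behind these values was 95.8 to 122 in WT and 2.6 to 29.0 in cKO. Without the filter on low values the log2 fold change was -0.54 (adjusted p = 0.00422 from limma).

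*Il6st* was abundant and level, with an FPKM of 34.2, 35.3 and 34.4 in WT and 37.6, 34.8 and 33.6 in cKO. Its groups overlapped, and the log2 fold change of 0.025 (standard error 0.067) had an adjusted p of 0.754 from limma. Scaling to the same FPKM total gave -0.52 (adjusted p = 0.00242), close to the shift of the median gene, and the GC and length correction gave 0.25 (adjusted p = 0.01).

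Of the feedback inhibitors, *Socs1* was by far the most abundant. It lies on chromosome 16 (10782240 to 10785536), and its product binds JAK kinases directly. Its FPKM was 144, 140 and 134 in WT and 96.5, 99.0 and 85.3 in cKO. All cKO libraries were lower, by 33.0% in the mean. The log2 fold change was -0.58 ± 0.080 (SE; limma adjusted p = 0.000861). The call on *Socs1* was lost with WT counted as 1 sample (adjusted p = 0.0747) and with the correction for GC content and length, which brought the log2 fold change to -0.063 (adjusted p = 0.43).

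*Socs3*, on chromosome 11 (117966079 to 117970047), encodes the inhibitor that binds gp130. Its FPKM was 6.91, 7.30 and 7.92 in WT and 1.58, 3.02 and 2.82 in cKO. All cKO libraries were below WT, and cKO 1 was the lowest. The mean was 2.98-fold lower, with a log2 fold change of -1.29 ± 0.167 (SE; limma adjusted p = 0.000679). It passed the threshold under all 17 alternatives, between -1.74 and -0.83, and with WT counted as 1 sample the adjusted p was 0.0369.

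*Cish*, on chromosome 9 (107296026 to 107302784), is a STAT5-induced inhibitor. Its FPKM was 0.853, 0.714 and 0.982 in WT and 0.155, 0.394 and 0.117 in cKO. The groups did not overlap, and the exact two-sided permutation test again gave p = 0.1. The estimated fragments were 39.1 to 53.7 in WT and 5.4 to 21.5 in cKO, and without the filter the log2 fold change was -0.60 (adjusted p = 0.00478 from limma). An annotated pseudogene, *Gm17040*, overlaps *Cish* on the other strand, and since the strand setting of the counting is not stated, reads of the pair cannot be told apart.

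In WT, the order of FPKM levels among the receptors ran from *Ifngr1* through *Il2rg*, *Il4ra*, *Il6st*, *Il7r* and *Il2rb* to *Il6ra*, and no neighbouring pair overlapped. In cKO the order was kept, again without overlap between neighbours. Among the inhibitors the order was *Socs1*, *Socs3*, *Cish* in both genotypes.

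The other SOCS genes did not move as a block. Of the 8 family members, which include *Socs1*, *Socs3* and *Cish*, 6 were tested. With *Socs1* and *Socs3* counted, 4 fell and 1 rose, with a median log2 fold change of -0.35 beside 0.039 for all tested genes. Beside these and the later list counts, 29.8% of all tested genes fell and 35.8% rose. With GC content and length corrected those shares were 25.1% and 31.9%, and with the same FPKM total 59.9% and 8.74%. *Socs7* had an FPKM of 10.4 to 11.01 in WT and 7.34 to 7.84 in cKO (log2 fold change -0.46, adjusted p = 0.000955 from limma), although the GC and length correction brought it to -0.023. *Socs5* also fell, from 1.80 to 1.97 in WT to 1.36 to 1.62 in cKO (-0.24, adjusted p = 0.039), a call that quantile normalization ended (adjusted p = 0.71).

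*Socs4* rose from 14.4 to 15.4 in WT to 17.2 to 20.2 in cKO (log2 fold change 0.30, adjusted p = 0.0126 from limma), but was at -0.23 when scaled to the same FPKM total. *Socs6* was at 9.62 to 9.91 in WT and 10.1 to 11.3 in cKO (0.14, adjusted p = 0.119). *Socs2* did not exceed 0.332 in any library and was not tested. With WT counted as 1 sample, *Socs3* was the 1 tested family member that fell, and none rose. With GC content and length corrected 1 of the 6 fell and 1 rose.

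**Figure D3:**
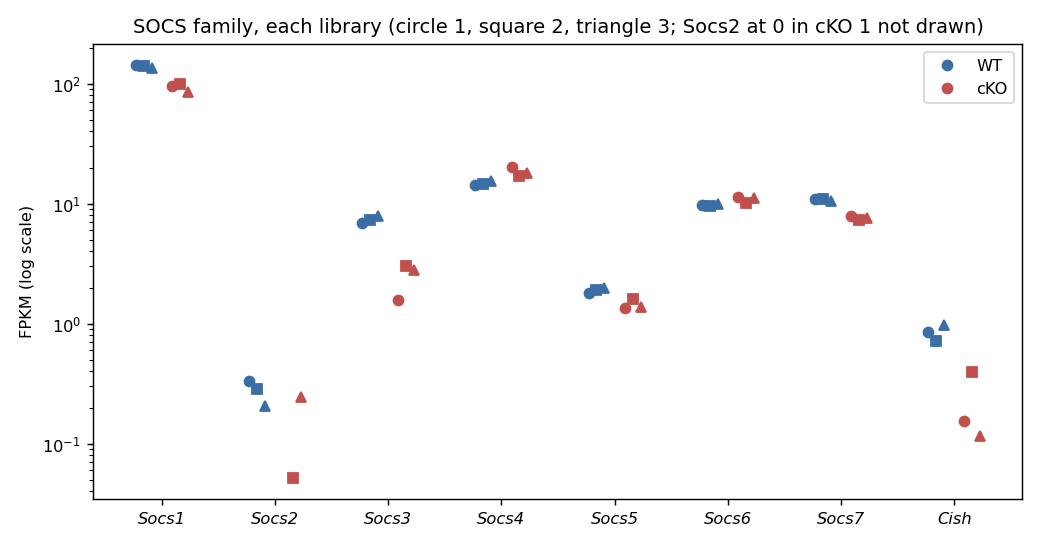
FPKM (log axis) of the 8 SOCS family genes in each WT and cKO library, with symbols for library number. Socs1 and Socs3 are lower in all cKO libraries and Socs4 is higher (below 0 at -0.23 on the log2 scale under the same FPKM total), while Socs2 stays below 0.34 throughout.

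SOCS proteins act in part as substrate adaptors of a ubiquitin ligase, and the genes of its 5 subunits all rose in cKO with median-of-ratios scaling (median log2 fold change 0.59). With GC content and length corrected 2 of the 5 rose (median 0.12), and without scaling or with the replicate block 4 rose, the call on *Cul5* being lost. *Tceb2*, which encodes elongin B, had an FPKM of 393, 397 and 398 in WT and 858, 809 and 1117 in cKO (log2 fold change 1.21, adjusted p = 0.000417 from limma). *Tceb2* alone of the 5 rose when WT counted as 1 sample (adjusted p = 0.0479). Scaled to the same FPKM total, *Tceb2* again rose (0.65, adjusted p = 0.00045) and *Cul5*, the scaffold, fell (-0.35, adjusted p = 0.0254), while the other 3 did not pass the test (0.031 to 0.044, adjusted p of 0.734 to 0.834). Of 11 other inhibitors of cytokine signalling, 4 fell and 3 rose (median -0.12). The adaptor *Sh2b3*, a restraint on JAK signalling, fell from 9.63 to 10.2 in WT to 4.70 to 5.95 in cKO (-0.80, adjusted p = 0.000365), but was at -0.19 with GC content and length corrected (adjusted p = 0.116). Under the same FPKM total 9 of the 11 fell and 0 rose, and with WT counted as 1 sample 1 fell and 0 rose.

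The wider receptor families include the 7 chains above. Of the 9 common gamma chain family receptors, all tested, *Il7r*, *Il2rb* and *Il2ra* fell and *Il2rg* rose (median log2 fold change -0.21), so *Il2ra* was the 1 call outside the 10 genes, and it was lost with WT counted as 1 sample. Of 10 gp130 family receptors, 5 were tested and 2 fell (median -0.19), whereas 1 fell and 2 rose with GC content and length corrected. *Il11ra1* fell from 4.86 to 7.21 in WT to 0.783 to 3.51 in cKO (log2 fold change -1.40, adjusted p = 0.00693 from limma), but near-identical copies of this gene make its counting uncertain. *Il27ra* fell from 14.6 to 16.5 in WT to 11.1 to 13.8 in cKO (-0.36, adjusted p = 0.0121), a call lost with that correction (adjusted p = 0.215). When WT counted as 1 sample, 0 of the 5 gp130 receptors fell.

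Of the 10 receptors of the interferon and IL-10 families, 7 were tested, of which 4 fell and 2 rose (median -0.23), and with GC content and length corrected 2 fell and 2 rose. *Ifnar2*, a chain of the type I interferon receptor, rose from 22.6 to 23.9 in WT to 35.1 to 41.3 in cKO (log2 fold change 0.69, adjusted p = 0.000414 from limma). Its partner *Ifnar1* fell from 22.1 to 22.7 to 17.5 to 20.2 (-0.23, adjusted p = 0.0196). The call on *Ifnar1* was lost with the GC and length correction (adjusted p = 0.0836), the replicate block (0.0517) and WT counted as 1 sample (0.32). Scaled to the same FPKM total, *Ifnar2* was at 0.15 (adjusted p = 0.0873) and *Ifnar1* at -0.77. Only 1 of the 7 rose when WT counted as 1 sample, namely *Ifnar2* (adjusted p = 0.0466), and 0 fell.

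Of 21 other cytokine receptors, 6 were tested and 4 fell (median -0.55; 3 of 5 without *Il17rc*, which passed the filter through WT alone), among them *Il17ra* from 79.3 to 81.9 in WT to 53.9 to 57.5 in cKO (-0.53, adjusted p = 0.000414 from limma). With GC content and length corrected, 1 of the 6 fell and *Il17ra* was at -0.16 (adjusted p = 0.0568). None of the 6 fell when WT counted as 1 sample. Of 18 cytokine ligands, 2 were tested, and the other 16 did not exceed 0.470 in any library. *Clcf1*, a ligand of the gp130 family, fell from 1.19 to 1.78 in WT to 0.0703 to 0.177 in cKO (-1.17, adjusted p = 0.000295). *Clcf1* passed the filter through its WT values alone, and with no filter the adjusted p was 0.00065.

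Of 10 kinases and STAT factors below the receptors, 6 fell and 1 rose, beside 29.8% and 35.8% of all tested genes, with a median log2 fold change of -0.48. With GC content and length corrected 5 fell and 2 rose, and the median was -0.19. *Jak3*, the kinase that binds the common gamma chain, had an FPKM of 8.25, 8.36 and 8.01 in WT and 3.24, 2.01 and 2.10 in cKO. All cKO libraries were lower, and the log2 fold change of *Jak3* was -1.43 ± 0.138 (SE; limma adjusted p = 0.00026). *Tyk2* fell from 7.71 to 8.66 in WT to 3.17 to 4.26 in cKO (-0.95, adjusted p = 0.000408). Both calls held with WT counted as 1 sample (adjusted p = 0.03 for *Jak3* and 0.0363 for *Tyk2*).

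*Stat5b*, which carries the IL-7 and IL-2 signal, fell from 96.6 to 99.7 in WT to 67.5 to 73.1 in cKO (log2 fold change -0.49, adjusted p = 0.000752 from limma). *Stat3*, which carries the IL-6 signal, fell from 35.9 to 36.6 to 23.9 to 27.7 (-0.47, adjusted p = 0.00109). *Stat4* rose from 15.9 to 16.7 to 22.3 to 24.7 (0.48, adjusted p = 0.000902), but was at -0.053 when scaled to the same FPKM total. With WT counted as 1 sample the calls on *Stat5b*, *Stat3* and *Stat4* were lost, which left 2 of the 10 lower. The GC and length correction ended the call on *Stat3* (-0.16, adjusted p = 0.128) and brought *Stat5b* to -0.21 (adjusted p = 0.0172).

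Of 11 genes known as STAT5 targets, 10 were tested, 6 fell and 1 rose (median log2 fold change -0.51), and with GC content and length corrected 4 fell and 1 rose (median -0.31). *Ccnd2*, which encodes cyclin D2, had an FPKM of 5.53, 4.59 and 5.41 in WT and 0.737, 0.653 and 0.898 in cKO (-1.80, adjusted p = 8.29e-05 from limma). *Bcl2*, the survival factor induced by IL-7, had an FPKM of 8.40, 8.60 and 7.94 in WT and 3.00, 4.44 and 3.53 in cKO (-1.01, adjusted p = 0.000439). Both were lower in every cKO library, and *Bcl2* stayed called with WT counted as 1 sample (adjusted p = 0.0364). *Ccnd2* passed the filter through its WT values alone, which leaves 5 of 9 lower without it, and with no filter its adjusted p was 0.000347. *Bcl2l1*, which encodes the survival factor of DP thymocytes Bcl-xL, had an FPKM of 115 to 120 in WT and 126 to 155 in cKO and rose (0.26, adjusted p = 0.0438). *Bcl2l1* was at -0.11 by quantile normalization and fell with the same FPKM total (-0.30, adjusted p = 0.01). Its call was lost with the replicate block (adjusted p = 0.0725) and with no filter (0.0593). With GC content and length corrected it rose (0.56, adjusted p = 0.00239).

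Of 9 transcription factors with a known role at *Il7r*, 3 fell and 3 rose (median -0.14), and with WT counted as 1 sample 1 fell, *Runx3*, and 0 rose. *Foxo1*, an activator of *Il7r* in T cells, had an FPKM of 12.7, 13.0 and 14.1 in WT and 9.26, 7.64 and 8.27 in cKO (log2 fold change -0.61, adjusted p = 0.00103 from limma). *Runx3*, also counted among the mature single positive markers below, fell from 4.96 to 5.32 to 1.53 to 2.13 (-1.13, adjusted p = 0.000191). *Gabpa*, the GABP alpha subunit that binds the *Il7r* promoter, rose from 25.2 to 25.5 to 31.1 to 33.8 (0.32, adjusted p = 0.00306), but was at -0.22 when scaled to the same FPKM total. Across that scaling 59.9% of all tested genes fell and 8.74% rose, and 7 of the 8 tested receptor and SOCS genes fell and 0 rose.

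**Figure D4:**
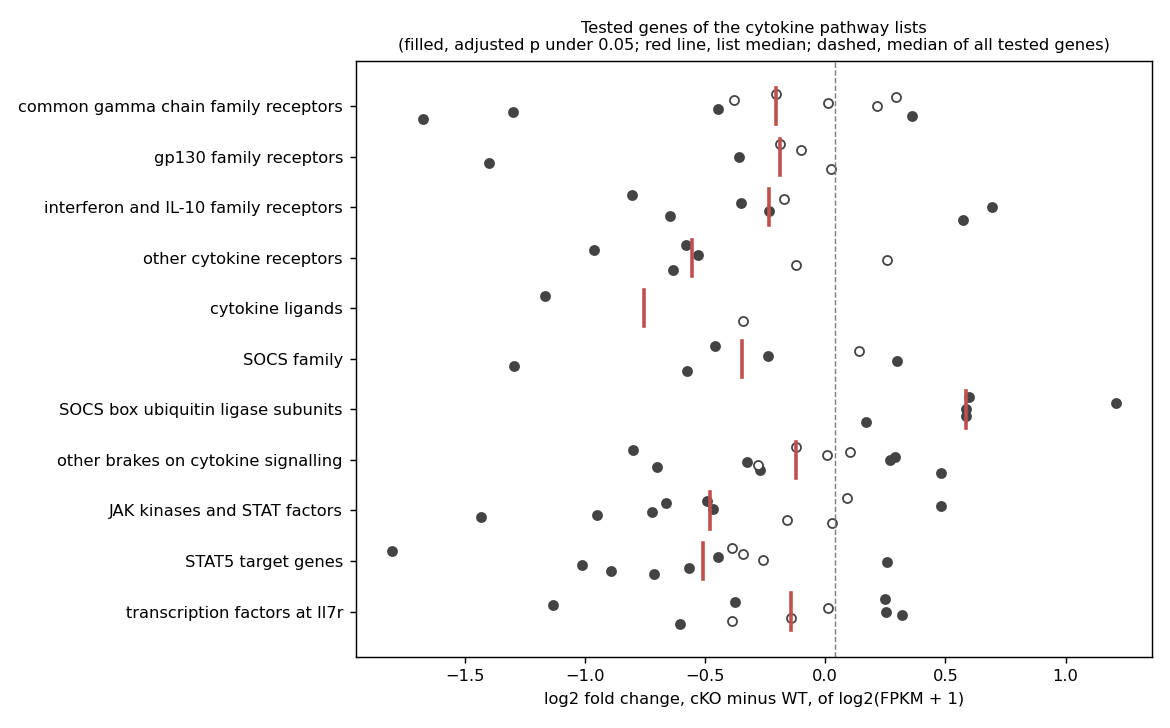
Log2 fold change (cKO minus WT) of log2(FPKM + 1) for the tested genes of each pathway list, filled where the adjusted p was under 0.05, with the list median in red. The JAK and STAT median lies at -0.48, the STAT5 target median at -0.51 and the ligase subunit median at 0.59, beside 0.039 for all tested genes (dashed).

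Markers of mature single positive thymocytes, cells that carry high *Il7r* and could enter the sort, mostly fell, as *Il7r* and *Il2rb* did. Of 11 such markers, 9 fell and 1 rose, beside 29.8% and 35.8% of all tested genes. Among the 9, *S1pr1* and *Zbtb7b* (2.72 to 3.05 in WT, 0.0649 to 0.300 in cKO) passed the filter through their WT values alone. Their tests were thus made on genes selected for high WT values. Among the receptors, *Il2rg* and *Ifngr1* rose with median-of-ratios scaling, and *Il4ra* and *Il6st* did not pass the test. *Ccr7*, a chemokine receptor of mature thymocytes, had an FPKM of 16.2, 15.1 and 15.2 in WT and 1.16, 1.42 and 2.499 in cKO, and *S1pr1*, the exit receptor, went from 4.11 to 4.79 to 0.133 to 0.203. The summed FPKM of the 11 was 470.1 to 481 in WT and 383 to 552 in cKO, a sum led by *Gimap6* and *Slfn2*, the markers that did not fall. None of the 11 was at 0 in all libraries, and their part in the lower *Il7r*, *Il2rb* and *Socs3* was not tested.

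**Figure D5:**
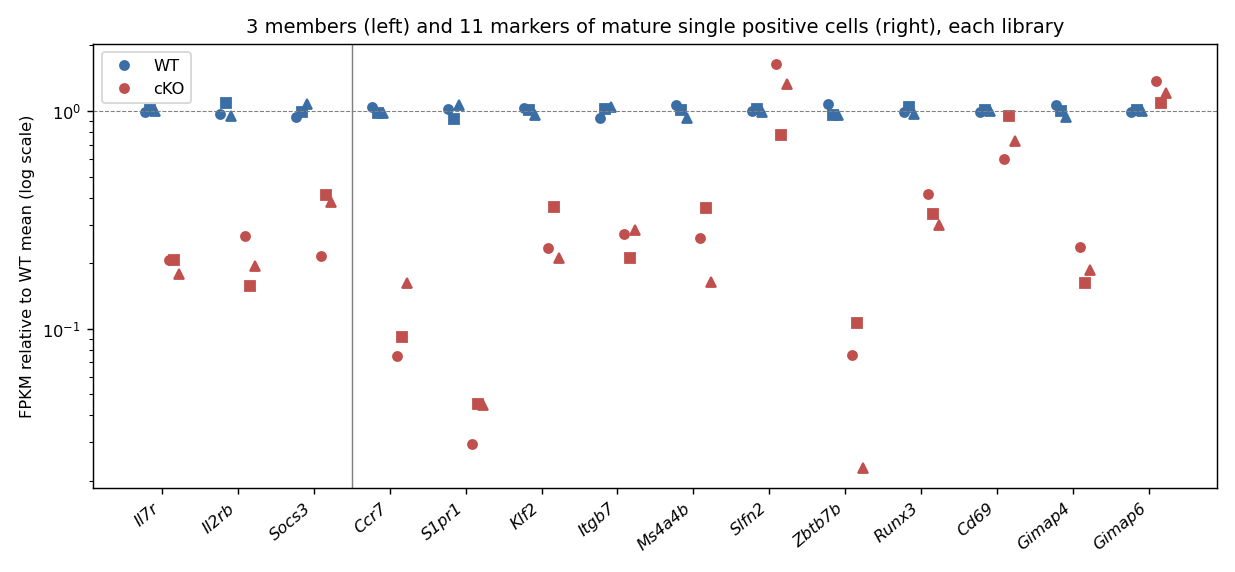
FPKM of Il7r, Il2rb and Socs3 (left) and of 11 markers of mature single positive thymocytes (right) in each library, divided by the WT mean (log axis). Most markers lie below the WT level in all cKO libraries, as the 3 genes do, while Gimap6 lies above it.

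Other cell types were weakly represented. The 7 double negative markers summed to 45.6 to 46.5 in WT and 29.0 to 39.3 in cKO (4 of 5 tested fell). *Il2ra*, given above as a receptor chain, was among the double negative markers that fell. The 10 innate-like T and NK cell markers, a population rich in *Il2rb*, summed to 10.04 to 11.3 and 7.08 to 8.52 (1 of 3 tested fell). The 5 regulatory T cell markers summed to 59.7 to 61.3 and 45.5 to 49.9 (2 of 4 tested fell). Myeloid markers overlapped between the groups at 11.1 to 13.97 and 11.6 to 13.7, as did B cell markers at 38.5 to 41.0 and 34.3 to 49.8 and dendritic cell markers at 0.460 to 0.579 and 0.470 to 0.870. Epithelial and stromal markers summed to 47.4 to 49.0 in WT and 53.4 to 57.4 in cKO, with *Krt5*, *Foxn1* and *Col3a1* at 0 in every library. That sum was nearly all *Pecam1* (43.3 to 45.4 in WT and 49.7 to 54.8 in cKO), while *Epcam* was at 3.45 to 3.71 and 1.88 to 3.59. Erythroid markers, led by *Hbb-b1* and *Hba-a1*, summed to 1.98 to 2.73 and 12.4 to 26.6. The part of these cells in the results was not tested.

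Over the 6 libraries, the genes whose log2(FPKM + 1) followed *Il7r* most closely were *Adgrg5*, *Phf2* and *Frmd8* (Pearson's r of 0.9997, 0.9996 and 0.9996). For *Ifngr1* they were *Magoh*, *Gpn3* and *Gm10052* (0.9999, 0.9993 and 0.9992). Such values were common, with 405 tested genes at 0.99 or more for *Il7r* and 242 for *Ifngr1*, as arises for any pair of genes with tight groups far apart over 2 genotypes.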

How the data were processed

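DP thymocytes were profiled in 3 WT and 3 cKO libraries, grouped by the genotype label. Per the study's methods, the authors made directional poly(A)-enriched libraries, trimmed the paired-end reads (fastx trimmer), aligned them with Tophat to the mm10 genome and deposited Cufflinks FPKM values for each gene symbol. Versions, annotation and strand setting are not given in the sources used here. The study's negative binomial test needs counts and was not repeated on FPKM.

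Symbols were matched to GENCODE M21 (22148 directly, 666 by synonym, 9 to several genes, 360 unmatched). Depth was estimated from single-fragment steps at 2608 single-transcript genes, assuming 200-base fragments, and covers counting error only. Values were divided by median-of-ratios size factors (1.00 to 1.02), and log2(FPKM + 1) of genes at FPKM 1 or more in at least 3 libraries was fitted with limma 3.58.1 in R 4.3.3 (lmFit, eBayes with trend, Benjamini-Hochberg over 10326 genes, threshold 0.05), after the script was tested on simulated data. Tables, exact permutation tests and figures used Python 3.11.15, numpy 2.4.6, pandas 2.3.3, scipy 1.17.1 and matplotlib 3.10.9. Alternatives were other scalings, pseudocounts and filters, a replicate block, no trend, WT as 1 sample, a GC and length correction by splines with 5 degrees of freedom, and each library left out. The 10 genes and the lists were chosen with earlier results of these data known. Text names all 10, partner chains, SOCS genes and, per list, at most the 4 smallest adjusted p in each direction. Marker genes named as examples were chosen after their values were seen. Some genes of the lists, and 1 list, are not reported here, a choice made without regard to their values.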

Additional observations from a re-analysis of the deposited data

How the results depend on the processing

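*Il7r* and *Socs3* kept direction and call under all 17 alternatives and *Il2rb*, which passed the filter through WT alone, under all 14 that tested it. Of the 10 genes, those called higher numbered 2 with median-of-ratios scaling and 0 by quantile normalization, with the same FPKM total and with WT counted as 1 sample; those called lower numbered 4, but 7 with the same FPKM total, 6 with no filter, and 3 with WT counted as 1 sample and with GC content and length corrected, where 3 were higher. Quantile normalization turned *Il2rg* to -0.11 and *Il6st* to -0.089, and the same FPKM total turned *Il2rg* to -0.20, *Il4ra* to -0.33 and *Il6st* to -0.52. With 1 library left out, *Il6st* ranged from -0.017 (without cKO replicate 1) to 0.059. The cause of these changes was not tested. Of all genes, 6766 were called (3693 higher, 3073 lower), against 1645 (744 and 901) with WT counted as 1 sample and 7083 (902 and 6181) with the same FPKM total, where the share of calls that were higher moved from 54.6% to 12.7%. Leaving out 1 library gave 5404 to 7637 calls (3071 to 4111 higher, 2324 to 3526 lower), with 2 to 3 of the 10 higher and 3 to 4 lower; *Il2rb* was untested without any WT library. With the replicate block 6467 genes were called and calls among the 10 stayed at 2 higher and 4 lower. Same-numbered libraries did not deviate together (r of -0.022, 0.039 and 0.031). WT libraries differed by little more than counting noise, so these r cannot show whether same-numbered libraries share more than a number. In all, 119 of the alternative values for the 10 genes were counted as unchanged and 6 reversed in sign. Of those that kept their sign, 7 lost the call and 3 gained one. Among the reversed values, *Il2rg* lost its call by quantile normalization. With the same FPKM total, *Il2rg*, *Il4ra* and *Il6st* were reversed and called lower. The 119 include *Il6ra* and *Cish*, which were tested only with no filter and so had no earlier call to keep. Depth limits *Cish* and *Il6ra*, with as few as 5.4 and 2.6 estimated fragments in a cKO library.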
